A study of Solanum lycopersicum with 12 samples.

Results

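Among the genes of tomato roots there is a set that was abundant in plants without aluminium (Al) and nearly silent in plants treated with it, in the wild type and in a mutant of the acid soil regulator STOP1 alike. It holds 121 of the 35768 gene models of the table, and 121 of the 4871 that averaged at least 20 FPKM without Al in both genotypes (2.48%). FPKM scales the fragments of a gene by the length of its transcript and the size of the library. The genes were chosen by their measured levels: a mean of at least 20 FPKM without Al in slstop1 and in WT, and a mean of at most 2 FPKM with Al in slstop1 and in WT. Their fall with Al is therefore how they were picked, and is given below as a description with no test.

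The RNA came from roots of tomato (Solanum lycopersicum) plants, 20 days after germination. There were 4 groups of 3 biological replicates, 12 libraries in all. They were slstop1 mutant plants with 60 µM Al, wild type (WT) plants with 60 µM Al, slstop1 mutant plants with 0 µM Al and WT plants with 0 µM Al. The solution of all 4 groups was at pH 4.7, so the plants without Al were in acid solution too. The sources used here do not say how the mutant was made, how many lines it stands for, which cultivar was used or how long Al was present.

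In acid solution Al dissolves into ions that bind the walls and membranes of root tip cells and stop root elongation. In Arabidopsis the zinc finger protein STOP1 turns on genes for tolerance of protons and of Al, among them the malate channel through which roots release malate to bind Al. A root that stops growing also changes its makeup of dividing, elongating and differentiated cells. In RNA of a whole root, fewer cells of a type and less RNA per cell cannot be told apart.

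The identifiers of the gene models are not paired with names or functions in the table, and 0 of them were found in the RefSeq gene table used here. The genes are therefore given by identifier, with the chromosome number that the identifier contains, and no role is assigned to any of them. For the same reason the root label was not checked against marker genes. SlSTOP1 (Solyc11g017140.2, chromosome 11, an identifier known from published nomenclature) read 27.65 to 30.02 FPKM in slstop1 with Al against 80.83 to 88.6 FPKM in WT with Al, and 33.54 to 39.82 FPKM in slstop1 without Al against 55.97 to 79.19 FPKM in WT without Al. The slstop1 libraries lay below the WT libraries in both conditions. By the spacing of low values the deepest library, replicate 2 of WT with Al, was 1.45 times as deep as the shallowest.

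Replicate 2 of WT with Al stood apart for these genes. With Al the median of the 121 genes was 0.19, 0.11 and 0.16 FPKM in the slstop1 libraries, against 0.48, 1.59 and 0.31 FPKM in WT. Of the 99 genes with different values in all WT libraries with Al, 72 were highest in replicate 2 (72.7%), where 35.7% of all tested genes were. Relative to its own mean without Al, the median gene kept 3.85% in that library, against 1.09% and 0.636% in the other WT libraries with Al. Of the 121 genes, 12 were listed at 0 there, 28 in replicate 1 and 34 in replicate 3. Its part in the results that follow was not tested beyond leaving it out. Without it the same thresholds find 164 genes, 119 of the 121 among them. The set moves with the thresholds too: a floor of 10 and a limit of 1 FPKM give 162 genes, 60 of them among the 121, and a floor of 40 and a limit of 4 FPKM give 87, with 44 shared.

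**Figure D1:**
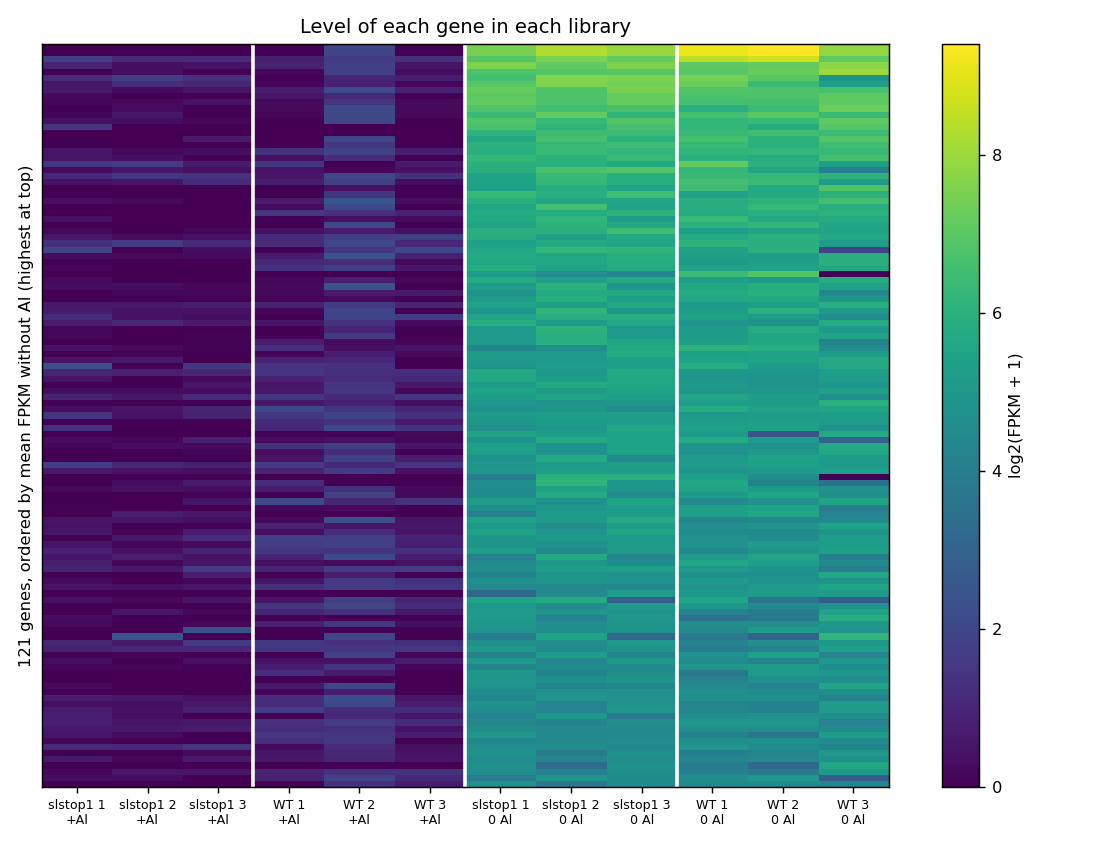
Level of the 121 genes in the 12 libraries, as log2(FPKM + 1). Each row is a gene, ordered by its mean without Al, and white lines separate the groups. Nearly every gene is bright without Al and dark with it (Solyc06g075670.1 is listed at 0 in replicate 3 of WT without Al), and replicate 2 of WT with Al is the least dark of the libraries with Al.

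The genes took a similar share of the summed FPKM in all libraries without Al. Their values added up to 0.00525% to 0.00714% of all FPKM in the slstop1 libraries with Al and 0.00911% to 0.0284% in the WT libraries with Al, against 0.784% to 0.922% in slstop1 without Al and 0.862% to 1.003% in WT without Al. The median gene averaged 0.203 FPKM in slstop1 with Al and 0.953 FPKM in WT with Al, against 36.1 and 35.3 FPKM without Al in slstop1 and WT. Over the 6 libraries without Al, 88 genes averaged under 50 FPKM, 21 lay between 50 and 100 FPKM and 12 were above 100 FPKM.

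The fall left 0.429% of the level without Al for the median gene in slstop1 (0 to 7.05% over the 121) and 2.13% in WT (0 to 8.24%). The other 4750 genes of at least 20 FPKM without Al kept a median of 62.8% in slstop1 and 73.6% in WT. On the log2(FPKM + 1) scale, which understates the change of low genes, the 121 changes with Al ran from -7.91 to -3.30 in slstop1 (median -4.83, against -0.46 over all tested genes) and from -8.17 to -2.89 in WT (median -4.33, against -0.27). All 121 passed a low-value filter of 1 FPKM in at least 3 libraries, but 25 of them would have done so on their libraries with Al alone, and the rest entered through the libraries without Al. All 121 were called lower with Al in each genotype (limma adjusted p under 0.05). The same fits called 45.5% of the 15903 tested genes lower in slstop1 and 39.0% in WT. Nothing is read from these calls, because the thresholds chose the genes by this fall. In WT 119 of the 121 were called lower when only the 6 libraries compared were fitted, against 5341 of the 15903 tested genes. The count was also 119 on leaving out replicate 1 or replicate 2 of WT without Al, against 5664 and 5752 of all tested genes. With median-of-ratios scaling 35.7% of all tested genes were called lower in slstop1 and 32.4% in WT. With quantile normalisation the shares were 33.1% and 31.8%.

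Libraries with and without Al seldom overlapped, which the thresholds on the means nearly fix in advance. The overlap was not counted over other genes, and nothing is read from it. For 119 of the 121 genes the highest of the 6 libraries with Al lay below the lowest of the 6 without Al. The exceptions were Solyc06g075670.1, listed at 0 in replicate 3 of WT without Al, and Solyc08g074490.3, at 2.83 FPKM in that library. In 21 of the genes all 3 slstop1 libraries with Al were listed at 0 and in 10 all 3 WT libraries with Al were. A 0 in such a table can be a failed estimate as well as a missing transcript, and no fold is given against a group at 0.

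Of the 121 genes, 6 were listed at 0 in all 6 libraries with Al. They were Solyc01g020378.1, Solyc03g093380.2, Solyc04g076190.1, Solyc06g075670.1, Solyc12g015655.1 and Solyc12g049110.1. The steadiest of them, Solyc04g076190.1 on chromosome 4, was at 68.04, 87.64 and 86.44 FPKM in slstop1 and 82.89, 91.36 and 85.37 FPKM in WT, both without Al. Solyc06g075670.1 on chromosome 6 was at 35.96, 22.31 and 17.93 FPKM in slstop1 and 84.78, 117.37 and 0 FPKM in WT, both without Al. Its WT libraries thus ranged from the listed 0 to over 100 FPKM, and its place in the set rests on the WT mean.

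The most abundant of the genes are a pair of identifiers with the same values in every library. Solyc00g072400.3, on no numbered chromosome, and Solyc10g076243.1 on chromosome 10 had 0 listed in each slstop1 library under Al, and 0.01, 2.92 and 0 FPKM in WT with Al. Control levels were 177, 316 and 245 FPKM in slstop1 and 580.2, 680.0 and 238 FPKM in WT. Their values are therefore uncertain as those of separate genes, and both are counted among the 121.

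The next most abundant was Solyc12g087940.2 on chromosome 12. It had 2.39, 1.18 and 1.26 FPKM in slstop1 and 0.74, 2.02 and 1.4 FPKM in WT under Al. Without Al, slstop1 had 117, 185 and 141 FPKM and WT 355, 419 and 133 FPKM. Its WT libraries without Al included the highest values and 1 library among those of slstop1, so the genotypes overlapped.

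Solyc07g043490.1 on chromosome 7 had similar levels in both genotypes. Under Al it had 0.93, 0.31 and 0.37 FPKM in slstop1 and 0.85, 2.39 and 0.42 FPKM in WT. The libraries without Al held 187, 138 and 194 FPKM in slstop1 and 132, 142 and 218 FPKM in WT. Both genotypes spanned nearly the same range.

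Solyc08g005960.2 on chromosome 8 had 0, 0.28 and 0 FPKM in slstop1 and 0.12, 2.46 and 0.24 FPKM in WT under Al. In the absence of Al the slstop1 libraries had 106, 122 and 119.7 FPKM and the WT libraries 124, 147 and 261 FPKM. Every WT library without Al lay above every slstop1 library without Al, but by little apart from replicate 3. Solyc08g074690.3, also on chromosome 8, had 0.57, 0.2 and 0.41 FPKM in slstop1 and 0.65, 3.46 and 0.81 FPKM in WT under Al. Control levels were 145, 109.8 and 178 FPKM in slstop1 and 115, 111 and 100.45 FPKM in WT.

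Replicate 3 was the lowest WT library without Al in several of these genes, and by most in the next ones. Solyc03g005530.1 on chromosome 3 had 1.19, 2.35 and 1.38 FPKM in slstop1 and 0, 0.96 and 0.66 FPKM in WT under Al. Without Al, slstop1 had 96.8, 204 and 189 FPKM and WT 174, 125 and 29.9 FPKM. Solyc08g079920.2 on chromosome 8 had 0.5, 1.28 and 1.04 FPKM in slstop1 and 0.13, 0.82 and 0.09 FPKM in WT under Al. The libraries without Al held 123, 191 and 172 FPKM in slstop1 and 148, 84.95 and 39.73 FPKM in WT. Both genes were, with Al, higher in the slstop1 mean (1.64 and 0.940 FPKM) than in the WT mean (0.540 and 0.347 FPKM), which was the less common order among the 121.

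The spread between replicates without Al was wider in the median for the 121 genes than for other abundant genes, a difference that was not tested. The genes compared were not matched for level, and 88 of the 121 averaged under 50 FPKM without Al. The coefficient of variation (CV, the SD over the mean of 3 replicates) had a median of 22.3% in slstop1 without Al and 28.7% in WT without Al. The other 4750 abundant genes had medians of 10.8% and 19.6% in those groups. The lowest and highest CVs of the 121 genes were 3.29% and 84.6% in slstop1 and 3.55% and 119% in WT.

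A common pattern ran through the replicates without Al. It is described for replicate 3 of WT and replicate 2 of slstop1, and other library pairs were not described in this way. Over all tested genes, as differences from the group mean, these libraries correlated at r = -0.18. Replicate 3 of WT and replicate 1 of slstop1 were linked more strongly, at r = 0.26. In WT without Al, replicate 3 was the highest library for 57 of the 121 genes and the lowest for 49, which left 15 between. Where replicate 3 of WT was lowest, replicate 2 of slstop1 without Al was the highest of its group in 29 of 49 genes (59.2%) and the lowest in 5. Where replicate 3 of WT was highest, replicate 2 of slstop1 was the lowest in 43 of 57 genes (75.4%) and the highest in 8. These libraries thus moved in opposite directions in most of the genes.

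The 4750 other abundant genes showed the same opposition. With replicate 3 of WT lowest, replicate 2 of slstop1 was highest in 51.7% of them, and with it highest, lowest in 67.4%. Across genes, which are not independent, the difference of WT replicate 3 from replicates 1 and 2 and that of slstop1 replicate 2 from replicates 1 and 3 correlated at r = -0.41 over the 121 genes and -0.43 over the others. All genes share these libraries, and the measures on either side come from different libraries. The size differed: with replicate 3 of WT lowest, replicate 2 of slstop1 was above the other slstop1 libraries by a median log2 of 0.42 for the 121 genes and 0.11 for the others, and with it highest the medians were -0.31 and -0.17. Replicate 3 of WT also lay further from replicates 1 and 2 in the 121 genes. Its median log2 differences were -0.76 where lowest and 0.67 where highest, against -0.53 and 0.44 for the others. In the 15 genes with replicate 3 of WT between, replicate 2 of slstop1 was highest in 11 (73.3%), against 33.2% of such other genes. No test was made of these differences.

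**Figure D2:**
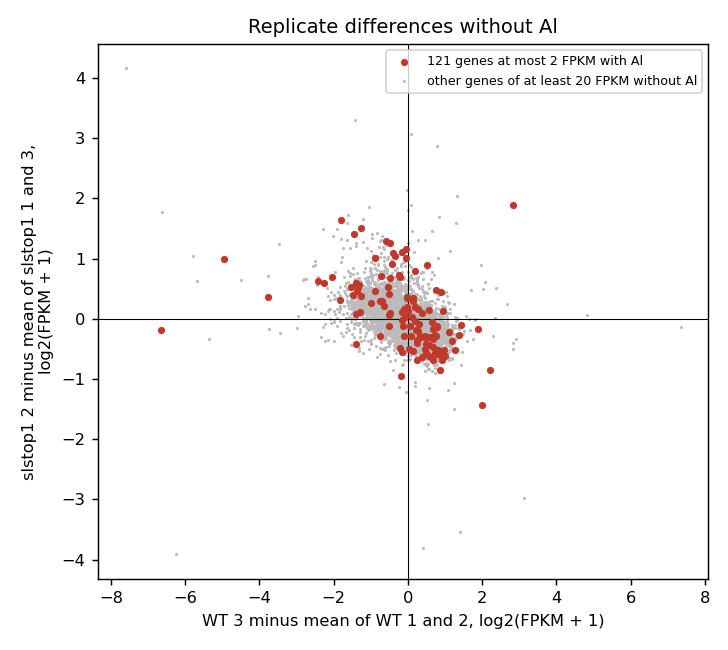
Replicate differences without Al on the log2(FPKM + 1) scale: on the x axis WT replicate 3 minus the mean of WT replicates 1 and 2, on the y axis slstop1 replicate 2 minus the mean of slstop1 replicates 1 and 3. Red points are the 121 genes and grey points the 4750 others of at least 20 FPKM without Al; both clouds slope downward (r = -0.41 and -0.43), and the point farthest left among the red ones is Solyc06g075670.1.

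Without Al no difference between the genotypes passed the test in these genes. The thresholds set a floor of 20 FPKM in both groups but did not use the difference between them. None of the 121 genes was called between slstop1 and WT without Al (limma over all 15903 tested genes, adjusted p under 0.05), where 28 tested genes (0.176%) were. At an unadjusted p under 0.05, 11 of the 121 passed (9.09%), against 5.42% of tested genes. The slstop1 and WT libraries did not overlap in 11 of the 121 (9.09%), against 8.16% of tested genes. The log2 difference, slstop1 minus WT, had a median of 0.02 and ran from -0.92 to 1.97, the highest value in Solyc03g093380.2, which is near 0 in replicate 3 of WT without Al. Over all tested genes its median was 0.01.

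The 3 lowest p-values among them belonged to genes named here after their values were seen. Solyc04g056620.2 on chromosome 4 was at 61.9, 61.2 and 90.2 FPKM in slstop1 and 39.1, 44.3 and 44.5 FPKM in WT, both without Al. Every slstop1 library was above every WT library, by a log2 difference of 0.70 ± 0.177 (SE; limma adjusted p = 0.311). Solyc09g075350.3 on chromosome 9 was at 21.14, 19.92 and 20.05 FPKM in slstop1 and 26.6, 33.3 and 47.0 FPKM in WT, which again did not overlap (-0.74 ± 0.198; limma adjusted p = 0.362). Solyc08g079200.1 on chromosome 8 was at 39.3, 57.7 and 42.8 FPKM in slstop1 and 85.8, 53.6 and 114.9 FPKM in WT, where the groups overlapped (-0.80 ± 0.260; limma adjusted p = 0.557). For the identical pair above, the difference of -0.92 ± 0.518 had a limma adjusted p of 1 (0.314 to 1 over 20 alternatives).

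With Al the remaining level was lower in slstop1 than in WT for most of the genes. The thresholds hold both groups at or under 2 FPKM, and most of the genes were kept by the low-value filter only through their libraries without Al. The differences are therefore given as a description, with no test. The slstop1 mean was below the WT mean in 99 of the 121 genes, and in 67.8% of all tested genes. The log2 difference had a median of -0.48 over the 121 genes and -0.16 over all tested genes. With replicate 2 of WT with Al left out, the medians were -0.15 and -0.15. With median-of-ratios scaling they were -0.43 and -0.01, and with quantile normalisation -0.37 and 0.02.

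**Figure D3:**
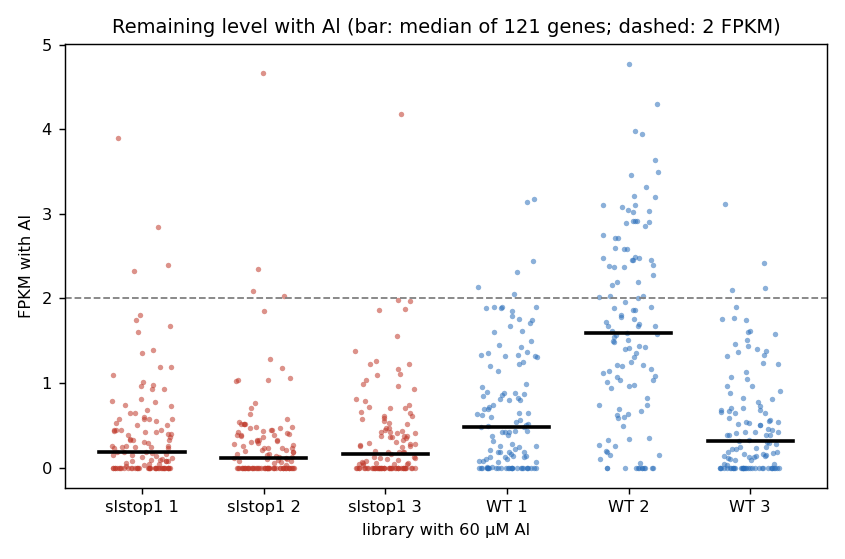
FPKM of the 121 genes in each of the 6 libraries with 60 µM Al, slstop1 in red and WT in blue. Black bars are medians over genes (0.19, 0.11 and 0.16 FPKM in slstop1; 0.48, 1.59 and 0.31 FPKM in WT), the dashed line marks 2 FPKM, and points are spread sideways at random to separate them.

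The 3 genes that follow, chosen after their values were seen, had every slstop1 library with Al below every WT library with Al. They are examples and not a total. Other genes of the set, among them Solyc08g066590.3 and Solyc12g010800.2, were separated in the same way. The reverse occurred too, as in Solyc03g005530.1, with 1.19, 2.35 and 1.38 FPKM in slstop1 and 0, 0.96 and 0.66 FPKM in WT. Genes separated in either direction were not counted, in the set or over all genes, and the thresholds bound these levels. Solyc12g089380.2 on chromosome 12 had 0 listed in each slstop1 library under Al, where WT had 1.79, 1.44 and 0.82 FPKM. In the absence of Al the slstop1 libraries had 53.4, 58.0 and 66.9 FPKM and the WT libraries 54.9, 61.9 and 66.9 FPKM, so that the genotypes overlapped there. Solyc12g014030.1 on chromosome 12 was likewise listed at 0 in slstop1 under Al, where WT had 1.68, 2.89 and 1.22 FPKM. Without Al its slstop1 libraries read 31.1, 22.1 and 32.3 FPKM and its WT libraries 29.98, 21.92 and 26.38 FPKM, again overlapping. Solyc10g052600.1 on chromosome 10 had 0.4, 0 and 0.18 FPKM in slstop1 and 0.81, 1.2 and 1.13 FPKM in WT under Al. Control levels were 49.5, 36.9 and 48.8 FPKM in slstop1 and 29.6, 28.4 and 34.8 FPKM in WT. In these libraries slstop1 was below WT with Al and above it without. The difference without Al was not called, and neither the difference with Al nor the change of order was tested.

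**Figure D4:**
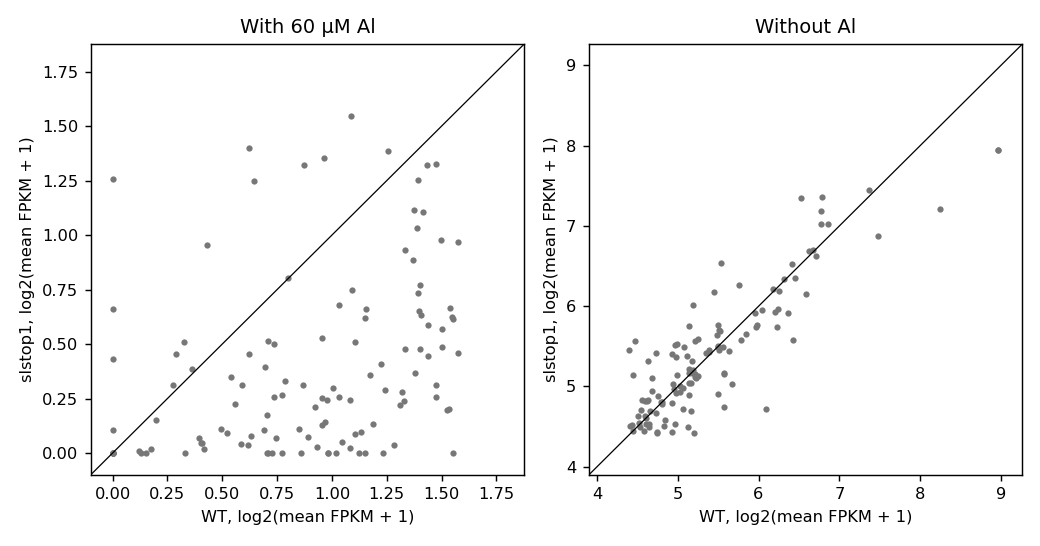
Mean level of the 121 genes in slstop1 (y axis) and in WT (x axis), as log2(mean FPKM + 1), with 60 µM Al on the left and without Al on the right. Each point is a gene and lines mark equal levels; with Al 99 genes lie below the line, and without Al 61 do.

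The same low limit with Al was met more often in slstop1 among abundant genes in general. Of the 4871 genes of at least 20 FPKM without Al in both genotypes, 230 averaged at most 2 FPKM with Al in slstop1 but more than 2 in WT, and 5 did so in WT but not in slstop1. With median-of-ratios scaling these counts were 166 and 6. The 121 genes are those under the limit in both.

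Values near the thresholds differed little between genes on either side. At the limit with Al in slstop1, Solyc07g054760.1 (mean 1.92 FPKM) was just inside and Solyc06g050870.3 (2.03 FPKM) just outside. For WT with Al they were Solyc10g005000.3 (1.98 FPKM) and Solyc02g083860.3 (2.04 FPKM). At the floor without Al in slstop1 Solyc09g075350.3 (20.37 FPKM) and Solyc08g066660.1 (19.92 FPKM) were nearest. In WT without Al they were Solyc12g088000.2 (20.06 FPKM) and Solyc12g100080.1 (19.47 FPKM). Solyc09g075350.3, whose libraries without Al are given above, had 0.4, 0.33 and 0.47 FPKM in slstop1 and 1.45, 2.16 and 1.9 FPKM in WT under Al, without overlap. Solyc10g005000.3 on chromosome 10 had 1.68, 0.38 and 0.81 FPKM in slstop1 and 1.85, 2.72 and 1.38 FPKM in WT under Al, against 33.97, 36.48 and 37.52 FPKM in slstop1 and 32.89, 35.89 and 37.43 FPKM in WT without Al. Its levels without Al were steady, and 1 WT library with Al exceeded the limit. Solyc12g088000.2 on chromosome 12 had 0.45, 0.43 and 0.29 FPKM in slstop1 and 0.19, 3.95 and 0.41 FPKM in WT under Al, against 43.38, 32.72 and 52.66 FPKM in slstop1 and 18.49, 20.2 and 21.5 FPKM in WT without Al. Only 39 of the 121 genes had every library past the thresholds, and 54 had at least 1 library with Al above 2 FPKM.

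By position, the genes were on every chromosome. They were 18 of the 341 abundant genes of chromosome 12 (5.28%) and 13 of the 374 of chromosome 7 (3.48%). On the other numbered chromosomes the share lay between 1.40% (chromosome 9) and 2.997% (chromosome 8). Identifiers follow the order of genes along a chromosome, and in that order 14 of the genes formed 7 pairs of direct neighbours. Pairs of neighbouring genes can be near-identical copies that share reads, which was not checked here.

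The pair with the most similar profile was Solyc07g043480.1 and Solyc07g043490.1 on chromosome 7, with r = 0.997 over the 6 libraries without Al, where the other pairs ran from -0.59 to 0.96. Solyc07g043480.1 had 0.33, 0.26 and 0.1 FPKM in slstop1 and 0, 3.02 and 0 FPKM in WT under Al. Without Al, slstop1 had 115, 77.6 and 114.0 FPKM and WT 73.8, 81.1 and 138 FPKM. Without Al both genes of the pair were lowest, among slstop1 libraries, in replicate 2 and highest, among WT libraries, in replicate 3. The next identifier, Solyc07g043500.1, was outside the set only through WT with Al. It had 0.75, 0.41 and 0.05 FPKM in slstop1 and 0.41, 8.11 and 0.41 FPKM in WT under Al. The libraries without Al held 158, 101 and 173 FPKM in slstop1 and 119, 111 and 202 FPKM in WT.

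On chromosome 11, Solyc11g007210.2 and Solyc11g007220.2 had the opposite replicate profile. Solyc11g007210.2 had 0.08, 0.47 and 0 FPKM in slstop1 and 0.08, 3.11 and 0.16 FPKM in WT under Al. In the absence of Al the slstop1 libraries had 79.7, 142 and 71.2 FPKM and the WT libraries 98.7, 128 and 83.2 FPKM. Its neighbour Solyc11g007220.2 had, under Al, 0.1, 0 and 0 FPKM in slstop1 and 0, 0.98 and 0 FPKM in WT, and, without it, 31.0, 67.0 and 31.0 FPKM in slstop1 and 35.04, 54.54 and 32.85 FPKM in WT. Both were highest in replicate 2 of each genotype without Al.

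On chromosome 8, Solyc08g074490.3 and Solyc08g074495.1 shared a high slstop1 replicate 2 and 3. Solyc08g074490.3 had 2.85, 0 and 0.28 FPKM in slstop1 and 0, 1.72 and 3.12 FPKM in WT under Al. Control levels were 45.8, 73.8 and 70.8 FPKM in slstop1 and 42.3, 61.1 and 2.83 FPKM in WT. Solyc08g074495.1 had, under Al, 1.35, 0.38 and 0.26 FPKM in slstop1 and 0, 2.75 and 2.12 FPKM in WT, and, without it, 43.0, 58.3 and 58.2 FPKM in slstop1 and 42.5, 35.3 and 24.4 FPKM in WT. The identifier before them, Solyc08g074480.1, was outside the set through WT replicate 2 with Al. It had, under Al, 0.86, 0 and 0.4 FPKM in slstop1 and 0.83, 9.54 and 0 FPKM in WT, and, without it, 72.7, 132 and 105 FPKM in slstop1 and 170.4, 146 and 109.6 FPKM in WT.

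Neighbours were less alike on chromosome 3. Solyc03g093380.2 was at 14.6, 61.7 and 62.6 FPKM in slstop1 without Al and 39.2, 24.2 and 0.03 FPKM in WT without Al. Its neighbour Solyc03g093390.3 was listed at 0, 0.63 and 0.41 FPKM in slstop1 with Al and at 0 in WT with Al, and read 17.2, 32.9 and 36.4 FPKM in slstop1 without Al and 38.0, 48.0 and 17.1 FPKM in WT without Al. Both were lowest in replicate 1 of slstop1 and replicate 3 of WT without Al, but only Solyc03g093380.2 came near 0 there. Solyc03g097600.3 had, under Al, 0.3, 0.14 and 0 FPKM in slstop1 and 0.62, 4.77 and 0.24 FPKM in WT, and, without it, 62.6, 48.1 and 46.9 FPKM in slstop1 and 57.1, 66.0 and 98.6 FPKM in WT. Its neighbour Solyc03g097610.3 had, under Al, 0.34, 0.08 and 0.42 FPKM in slstop1 and 0.42, 2.38 and 0.97 FPKM in WT, and, without it, 42.8, 54.2 and 6.16 FPKM in slstop1 and 45.2, 11.3 and 5.79 FPKM in WT. Where Solyc03g097600.3 was highest, in replicate 3 of WT, Solyc03g097610.3 was lowest.

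The other pairs differed in steadiness. Solyc07g054760.1 on chromosome 7 had, under Al, 3.9, 0 and 1.86 FPKM in slstop1 and 1.76, 1.61 and 0 FPKM in WT, and, without it, 29.1, 37.6 and 37.0 FPKM in slstop1 and 55.1, 34.5 and 50.3 FPKM in WT. Its neighbour Solyc07g054770.1 was listed at 0 in every library with Al but replicate 3 of slstop1, where it read 4.18 FPKM, and stood at 26.6, 25.1 and 28.0 FPKM in slstop1 without Al and 20.8, 33.0 and 27.1 FPKM in WT without Al. Solyc12g100220.2 on chromosome 12 had, under Al, 0.53, 0.51 and 0.71 FPKM in slstop1 and 0.8, 2 and 0.88 FPKM in WT, and, without it, 42.7, 38.3 and 51.0 FPKM in slstop1 and 32.0, 39.7 and 60.9 FPKM in WT. Its neighbour Solyc12g100230.1 was listed at 0 in slstop1 under Al, where WT had 0.07, 0.06 and 0.15 FPKM, and stood at 44.0, 38.1 and 41.7 FPKM in slstop1 without Al and 33.8, 4.44 and 50.1 FPKM in WT without Al. The low WT value belonged to replicate 2, in which Solyc12g100220.2 was not low.

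Neighbours outside the set were more often called lower than higher with Al. Of 222 such gene models directly next to one of the 121, 54 were 0 in every library and 126 were tested. With Al in slstop1, 70 of the 126 were called lower (55.6%) and 24 higher (19.0%), against 45.5% and 21.3% of all tested genes. In WT 59 were called lower (46.8%) and 20 higher (15.9%), against 39.0% and 21.9%. The balance depended on the scaling. With median-of-ratios scaling 44.4% of neighbours were lower and 23.0% higher in slstop1, against 35.7% and 31.5% of all tested genes, and 43.7% lower and 21.4% higher in WT, against 32.4% and 28.3%. With quantile normalisation the shares were 45.2% lower and 26.2% higher in slstop1, against 33.1% and 33.7%, and 43.7% lower and 21.4% higher in WT, against 31.8% and 28.7%. The 55 neighbours that were abundant without Al kept a median of 41.1% of that level in slstop1 and 54.1% in WT. These shares describe the neighbours, and no test of position was made.

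A direct neighbour of a gene of the set could lie outside it through WT with Al alone. Solyc12g089370.2, next to Solyc12g089380.2 and named after its values were seen, had 0.35, 0.66 and 0.44 FPKM in slstop1 but 15.75, 13.77 and 16.75 FPKM in WT under Al. Without Al, slstop1 had 26.0, 41.1 and 26.3 FPKM and WT 32.0, 26.3 and 29.4 FPKM. Its slstop1 and WT libraries were apart with Al and overlapped without it, as in Solyc12g089380.2.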

How the data were processed

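The authors deposited a table of FPKM values for 12 root libraries, with no unit named in it. Decimal values and unequal column totals led to reading it as FPKM. Cufflinks, StringTie, HISAT2 and TopHat2 are the programs listed per the submitters' processing notes. Their versions, the genome build and the annotation were not given in the sources used here. The number of reads is unknown, and intervals from counting are left out. Relative depth came from ratios of low values (0.3 to 4 FPKM), and 47 of 66 library pairs fitted a common set of depths within 0.05 (log2).

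Values were transformed as log2(FPKM + 1). A gene was kept if 3 or more libraries reached 1 FPKM. Group means over all 12 libraries were fitted with limma 3.58.1 in R 4.3.3 (eBayes with a trend, 8 residual degrees of freedom), two-sided, with Benjamini-Hochberg adjustment over all 15903 tested genes and a threshold of 0.05. The procedure was also run on simulated data with independent normal errors. The outcome is not given here, and the simulation held no pattern shared between libraries. Errors are limma's standard errors. Figures used matplotlib 3.10.9 in Python 3.11.15.

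The genes, lists and tests were chosen with earlier results of these data known. Values in every library are given for the 8 genes most abundant without Al, for direct neighbours, for genes sharing identical values and for those just inside a threshold; the nearest genes outside are given by the mean that decides. Genes outside this rule were chosen after their values were seen. Lists by description were not analysed here, since identifiers matched no reference entry. Alternatives were pseudocounts of 0.1 and 5, no filter, a minimum mean of 5 FPKM, quantile normalisation, median-of-ratios scaling, the 6 compared libraries alone, a replicate block and leaving out each library. No test is given for the genotypes with Al or for the interaction, because the thresholds bound the means these rest on. Alternatives for neighbours, for single genes and for counts of abundant genes under the limit in 1 genotype were added after seeing the data.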

Additional observations from a re-analysis of the deposited data

How the results depend on the processing

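No gene of the set was called between genotypes without Al under 19 of 20 alternatives. The exception was leaving out replicate 3 of WT without Al, where Solyc06g075670.1 is listed at 0, so the count ran from 0 to 1 with single libraries left out. Over all tested genes this count was unstable: 28 were called, 16 at a mean of at least 5 FPKM, 10 with only the 6 libraries, and 10 to 51 with a library left out, the highest on omitting replicate 3 of WT without Al. No link by replicate number was seen. Same-numbered libraries of different groups correlated at -0.24 to 0.09 and differently numbered ones at -0.24 to 0.26. These correlations cannot show whether the samples were paired. With the replicate block 8 genes were called. Counts of genes called with Al stayed within 1.5 times in every alternative run, but the share of calls that were lower moved: 68.1% in slstop1 became 53.1% with median-of-ratios scaling and 49.6% with quantile normalisation, where more genes were higher than lower, and 64.1% in WT became 53.3% and 52.5%. The set held 39 genes when every library had to pass, 140 with medians of replicates (99 shared with the 121), 95 and 81 with median-of-ratios scaling and quantile normalisation (all within the 121), and 103 to 164 with a library left out. Genes under the limit with Al in slstop1 but not WT numbered 135 with quantile normalisation and 187 to 248 with a library left out. In WT but not slstop1 they numbered 9 with quantile normalisation and 4 to 9 with a library left out. The causes were not tested. The 5 genes whose genotype difference without Al is printed with a p kept its direction and stayed uncalled in all 100 alternatives. Unknown depth limits the reading of values near 0, and p-values measure only the spread between these samples.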
